A study of Mus musculus with 4 samples.

Results

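Transcripts of the enzymes of glycolysis, the pentose phosphate pathway and the citrate cycle, together with the kinases that set their flux, were compared between IRF8-GFP negative and IRF8-GFP positive lymphoid-primed multipotent progenitors (LMPP) of mouse bone marrow. The set holds 43 genes, found as the non-control probes whose RefSeq accession maps to 1 of 43 chosen symbols, out of 20280 symbols on the array. They are read by 60 of 55669 probes, 34 genes by 1 probe and 9 by several. All 43 were well above background on all 4 arrays and entered the test. The pathway names rest on textbook biochemistry and not on these data.

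The study sorted LMPP, early progenitors that can still form lymphoid and myeloid cells, from mice with green fluorescent protein knocked in as a reporter of IRF8, a transcription factor of monocyte and dendritic cell development. Both groups carried the knock-in allele and the same surface phenotype: they were CD34(+), CD135(+), CD117(+) and Sca-1(+), and lacked CD150, IL-7R and lineage markers. They differed in the reporter, IRF8-GFP(-) against IRF8-GFP(+), with 2 one-colour Agilent arrays each, labelled exp 1 and exp 2. The labels give no age, treatment or number of animals and do not say that a group's arrays came from separate animals, so each p-value reflects array-to-array spread alone, possibly technical.

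As background, glycolysis turns glucose into pyruvate in the cytosol and yields ATP without oxygen, and lactate dehydrogenase keeps it running by converting pyruvate to lactate. The pentose phosphate pathway branches off at glucose-6-phosphate, where its oxidative arm makes NADPH and its non-oxidative arm makes and recycles the ribose for nucleotides. Pyruvate that enters mitochondria is oxidized in the citrate cycle, and pyruvate dehydrogenase kinases close that gate. Blood stem cells are known for a quiescent state that leans on glycolysis, and their more active progeny draw more on mitochondria.

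Every value below is a log2 processed signal relative to the 75th percentile of its array, and every difference is positive minus negative. Probes differ in how strongly they bind, so levels of different genes are not compared. The limma fit ran over 22362 genes and unnamed transcripts, with Benjamini-Hochberg adjustment over all of them. Irf8 itself was 11.7-fold higher in the positive group (adjusted p = 0.000802), as the sort was labelled. Of 59305 spots, 33506 and 33681 exceeded background clearly in the negative group, compared with 29631 and 30266 in the positive group. Of the gate's 6 surface marker genes on the list 5 were tested. Ly6a, which encodes Sca-1, fell (-0.96, SE 0.07, adjusted p = 0.00222) and so did Kit, the CD117 gene (-0.39, SE 0.06, adjusted p = 0.00769), both under all 7 scalings described below. Cd34 (0.26) and Flt3, the CD135 gene (0.25), passed upward under 2 of the 7. With the trend with brightness removed neither passed. The 6 tested genes of the gate list, Irf8 included, then had a median of -0.19, against 0.26 in the main fit. Il7r, whose protein the gate selects against, went from -1.57 and -1.54 to 0.86 and 0.83 (2.40, SE 0.06, adjusted p = 0.000835), and Slamf1, the CD150 gene, was not above background.

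In the main fit most of the 43 genes passed upward in IRF8-GFP positive LMPP, and a small set of isoenzymes and regulators passed downward. Under several other scalings, counted below, most of the 43 genes did not pass upward. In limma 31 of the 43 genes (72.1%) passed an adjusted p of 0.05 upward and 6 (14.0%) downward, against 38.5% and 21.4% of all genes tested, or 59.9% in either direction. The 6 that fell were Aldoc, Eno2, Ldhb, Pdk2, Pfkfb2 and Pfkfb4. Hk1, Pfkm, Eno3, Pfkfb1, Pdk1 and Idh3b did not pass. The median difference was 0.50 over the 43 genes and 0.16 over all genes. Under quantile normalization, spike-in scaling, cyclic loess and in the deposited matrix values, described below, 15 to 17 of the 43 passed upward. Downward calls then numbered 9 or 10. Of all genes 14.8% to 27.1% passed upward and 24.4% to 36.2% downward under the same settings. The members' medians were then 0.12 to 0.19, against -0.14 to 0.04 over all genes. The groups did not overlap for any of the 43 genes, 34 higher and 9 lower, as for 82.2% of all genes, 52.4% higher and 29.8% lower.

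**Figure D1:**
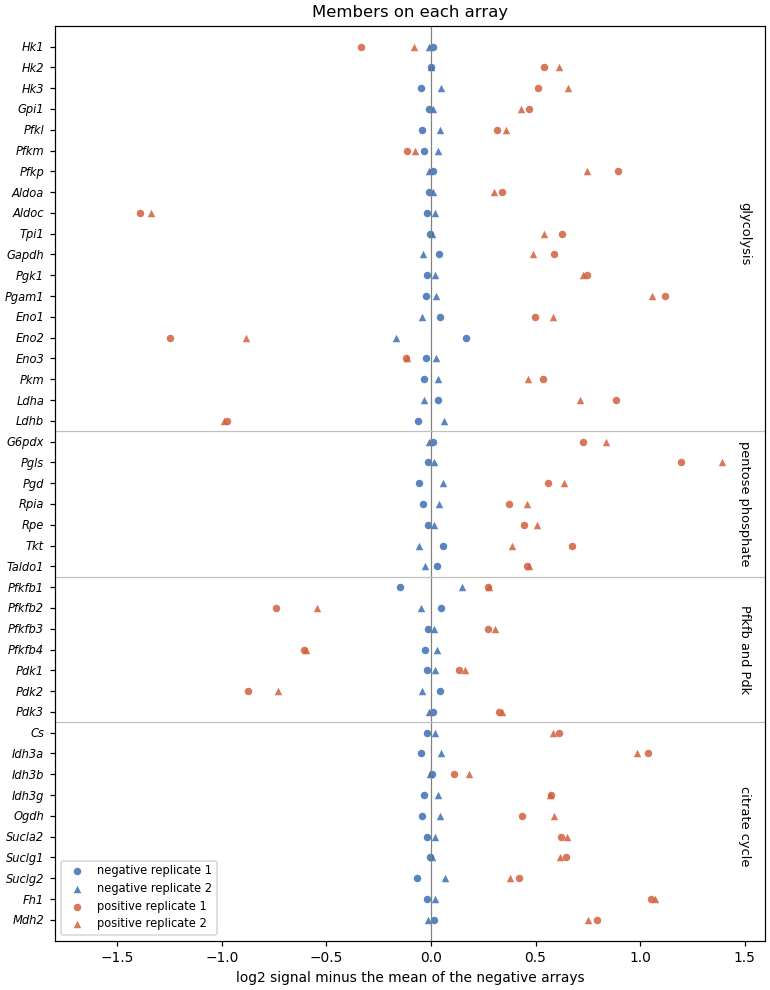
Log2 signal of the 43 genes on each of the 4 arrays, shown minus the mean of the gene's 2 negative arrays, with circles for replicate 1 and triangles for replicate 2. The groups do not overlap for any gene, and the spread within a group was widest for Eno2.

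Brightness has to be read with these counts. Of the 43 genes 28 lay among the 5591 brightest tested genes, where the median difference was 0.38. Among those 5591, 67.1% passed upward and 7.85% downward. Of the 28 members there, 24 (85.7%) passed upward, only Ldhb passed downward, and Hk1, Pfkm and Idh3b did not pass. When a difference of 0.5 or more from the median of all genes was also required, 9 members were higher and 6 lower, against 10.1% and 18.4% of all genes and 19.0% and 5.76% of the 5591 brightest.

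**Figure D2:**
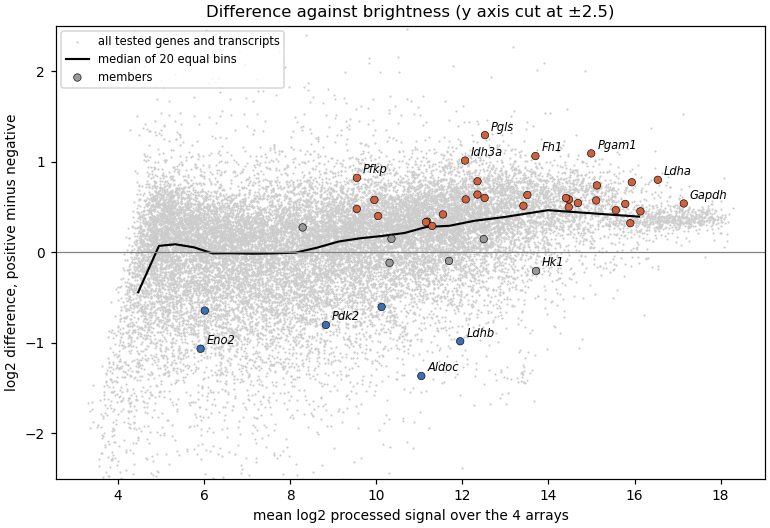
Log2 difference (positive minus negative) against the mean log2 processed signal over the 4 arrays for all 22362 tested genes (grey dots), with the median of 20 equal bins as a line and the 43 genes as larger points, orange where higher, blue where lower and grey where not past an adjusted p of 0.05. The line rises with brightness, and Pgls, Pgam1, Fh1 and Idh3a stand above it while Aldoc, Ldhb, Hk1 and Pdk2 stand below.

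The fit was therefore repeated under 6 other scalings, among them quantile normalization, spike-in scaling and a cyclic loess that removes the trend with brightness. Of the 43 genes, 13 (30.2%) passed upward under all 7 scalings, against 13.2% of all genes and 24.5% of the 5591 brightest, where the set had 11 of 28 (39.3%). They were Hk2, Pfkp, Pgk1, Pgam1, Ldha, G6pdx, Pgls, Pgd, Idh3a, Sucla2, Suclg1, Fh1 and Mdh2. All 6 genes that fell also passed downward under all 7 (14.0%), against 18.6% of all genes and 7.82% of the brightest. Normexp background correction, which is not among the 7, left 4 downward calls, without Eno2 and Pfkfb2. The 18 other upward calls, Gapdh, Gpi1, Aldoa, Eno1 and Pkm among them, were lost under 1 or more scalings. With the brightness trend removed 15 members passed upward and 10 downward, against 24.8% and 25.7% of all genes, and the medians were 0.13 and 0.02. Quantile normalization gave 16 and 9 members, against 27.1% and 24.4% of all genes, and the deposited matrix values 16 and 9, against 27.0% and 24.5%. Spike-in scaling gave 17 and 9, against 14.8% and 36.2%. Centring on the probes above background on every array gave 24 and 9, against 19.6% and 32.4%.

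**Figure D3:**
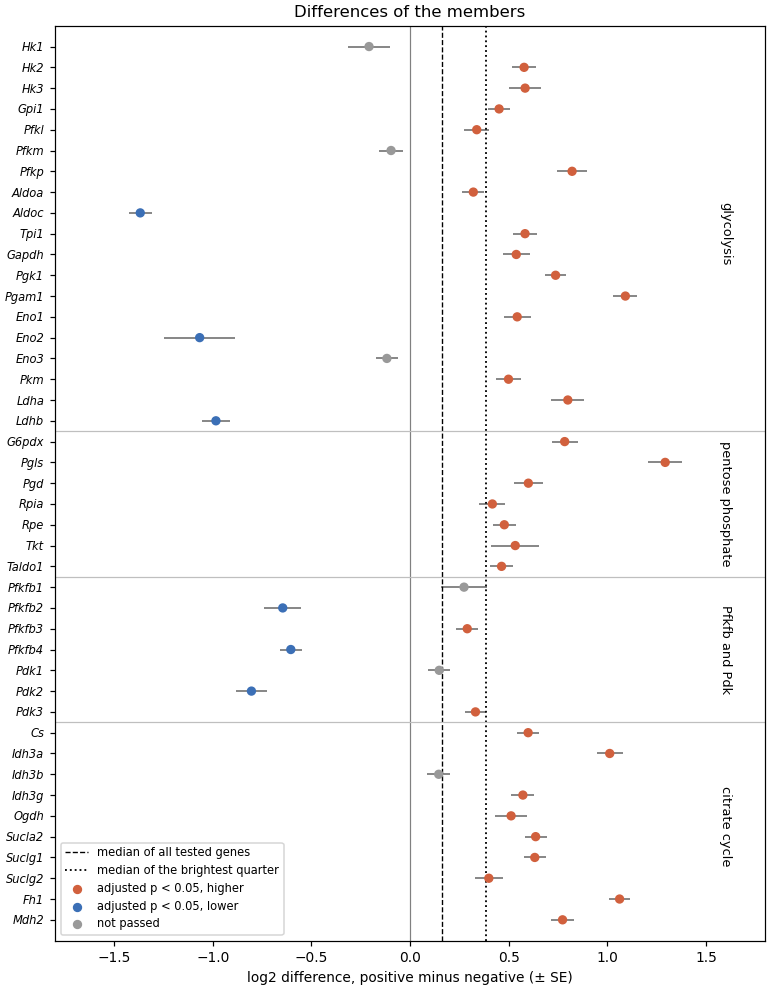
Log2 difference (positive minus negative) of each gene with its standard error, in pathway order, with the medians of all tested genes (dashed, 0.16) and of the 5591 brightest (dotted, 0.38). The citrate cycle and pentose phosphate genes lie to the right of 0, and the genes left of 0 belong to glycolysis and to the Pfkfb and Pdk families.

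Of the 3 hexokinase genes 2 rose, against 38.5% of all genes and 67.1% of the 5591 brightest. With the brightness trend removed 1 passed upward and 1 downward, against 24.8% and 25.7% of all genes. Hk2, the hexokinase of growing and insulin-responsive cells, read 0.95 on both negative arrays and 1.49 and 1.57 on the positive arrays. It was 1.49-fold higher (difference 0.58, SE 0.06, adjusted p = 0.00335). Hk3, the isoenzyme most typical of myeloid cells, went from 3.02 and 3.12 to 3.58 and 3.73 (0.58, SE 0.08, adjusted p = 0.00671) and narrowly missed the threshold with the brightness trend removed (0.25, adjusted p = 0.0501). Hk1, the widely expressed hexokinase that docks on mitochondria, read 5.11 and 5.09 on the negative arrays, then 4.76 and 5.02, and did not pass (-0.21, SE 0.10, adjusted p = 0.157). Its positive arrays lay apart from each other, and without positive replicate 2 it passed downward (-0.34, adjusted p = 0.0295). It also passed downward under 5 of the 7 scalings, with -0.60 when the brightness trend was removed. Its second probe gave -0.36.

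Phosphofructokinase catalyses the committing step of glycolysis and is built from muscle, liver and platelet-type subunits. The platelet-type subunit gene Pfkp went from 0.43 and 0.42 to 1.32 and 1.17, a 1.77-fold increase (0.82, SE 0.08, adjusted p = 0.00284). A second, dimmer Pfkp probe gave 0.49. The liver-type gene Pfkl went from 2.25 and 2.35 to 2.62 and 2.66 (0.34, SE 0.06, adjusted p = 0.0146). That call was lost without negative replicate 1 (adjusted p = 0.0848) or 2 (0.0557), and with 5 of the 7 scalings. The muscle-type gene Pfkm lay at 2.99 and 3.06 and then 2.91 and 2.95 (-0.10, SE 0.06, adjusted p = 0.229), and passed downward under 5 scalings.

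The aldolase genes split. Aldoa encodes the ubiquitous aldolase, which cuts fructose-1,6-bisphosphate, and Aldoc its brain-type counterpart. Aldoc gave the largest decrease of the set: 2.997 and 3.03 on the negative arrays against 1.62 and 1.67 on the positive arrays, 2.58-fold lower (-1.37, SE 0.06, adjusted p = 0.00137). Aldoa read 7.02 and 7.03 and then 7.37 and 7.33 (0.32, SE 0.06, adjusted p = 0.0116). No direction can be given for Aldoa, because its sign turned in the deposited matrix values (-0.10), under quantile normalization (-0.091) and with the brightness trend removed (-0.13), and it did not pass without negative replicate 1 (adjusted p = 0.076) or 2 (0.0712).

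Upstream and beside aldolase, Gpi1, the glucose-6-phosphate isomerase gene, went from 7.19 and 7.20 to 7.67 and 7.63 (0.45, SE 0.06, adjusted p = 0.00492), and its sign was lost when the brightness trend was removed (-0.0077). Its 3 probes agreed within 0.45 to 0.51. Tpi1, the triose isomerase gene, went from 5.47 on both negative arrays to 6.09 and 6.01 (0.58, SE 0.06, adjusted p = 0.00354) and kept its call under 4 of the 7 scalings.

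In lower glycolysis, where ATP is regained, 5 of 7 genes rose and 1 fell, against 38.5% and 21.4% of all genes. With the brightness trend removed 2 rose and 2 fell, against 24.8% and 25.7% of all genes. Pgam1, the phosphoglycerate mutase gene, led: 5.71 and 5.76 on the negative arrays and 6.85 and 6.79 on the positive arrays, 2.13-fold higher (1.09, SE 0.06, adjusted p = 0.00167), with 0.60 to 1.09 over the 7 scalings. Pgk1, which encodes phosphoglycerate kinase, went from 6.02 and 6.06 to 6.79 and 6.77, 1.67-fold (0.74, SE 0.06, adjusted p = 0.00219). These 2 alone of the 7 genes kept an upward call under every scaling run.

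Gapdh, often used as a reference gene, was not level under the main scaling. It read 8.20 and 8.12 on the negative arrays, then 8.75 and 8.65 (0.54, SE 0.07, adjusted p = 0.00555). Its 7 probes ranged from 0.52 to 0.73. With the brightness trend removed the difference was 0.05 (adjusted p = 0.425). Eno1, the ubiquitous enolase gene, was at 0.54 (SE 0.07, adjusted p = 0.00532) and Pkm, the pyruvate kinase gene, at 0.50 (SE 0.06, adjusted p = 0.00545). With quantile normalization these shrank to 0.047 and 0.0048.

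The tissue-restricted enolases went the other way or did not pass. Eno2, the neuron-type enolase gene, is a dim probe that read -2.10 and -2.43 on the negative arrays, then -3.51 and -3.15. It was 2.09-fold lower (-1.07, SE 0.18, adjusted p = 0.011) and did not pass without negative replicate 1 (-0.90, adjusted p = 0.0536) or under normexp background correction (-0.32). Eno3, the muscle-type gene, read 1.63 and 1.67 and then 1.53 on both positive arrays (-0.12, SE 0.06, adjusted p = 0.138), and passed downward under 5 of the 7 scalings (-0.25 with quantile normalization).

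Lactate dehydrogenase is a tetramer of the subunits encoded by Ldha, which is typical of muscle and of glycolytic cells, and Ldhb, typical of heart. Their transcripts moved apart. Ldha went from 7.46 and 7.39 to 8.31 and 8.14, 1.74-fold higher (0.80, SE 0.08, adjusted p = 0.00347), and its other 2 probes gave 0.99 and 1.0. Ldhb went from 3.66 and 3.79 to 2.75 and 2.74, 1.98-fold lower (-0.98, SE 0.07, adjusted p = 0.00204). The log2 ratio of Ldha to Ldhb within an array rose by 1.78, a 3.44-fold change of the ratio, and by 1.64 to 1.78 over the 7 scalings.

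Within-array ratios do not move with a constant shift between arrays, so all 23 pairs of related genes in 8 enzyme families were put on that scale. The families were chosen with the values known, and with 2 against 2 arrays an exact permutation test cannot go below p = 0.333, so the ratios are described and not tested. Each pair was written with the gene of the larger difference first, so its change in the main fit is positive by construction. Many pairs share a gene and are not independent. In 20 of 23 pairs the groups did not overlap, but 82.2% of all single genes did not overlap either. The share among gene pairs in general was not computed. In 14 pairs the ratio changed by at least 0.5 under all 7 scalings. After the lactate dehydrogenases came Aldoa over Aldoc (1.69, or 3.22-fold) and Eno1 over Eno2 (1.61, with 1.01 to 1.61 over the scalings). Normexp background correction is not among the 7 scalings, and under it the dim Eno2 and Pfkfb2 lay at -0.32 and -0.013. Pfkp over Pfkm shifted by 0.92, Hk2 over Hk1 by 0.79 and Hk3 over Hk1 by 0.79, while Hk3 over Hk2 lay at 0.01.

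**Figure D4:**
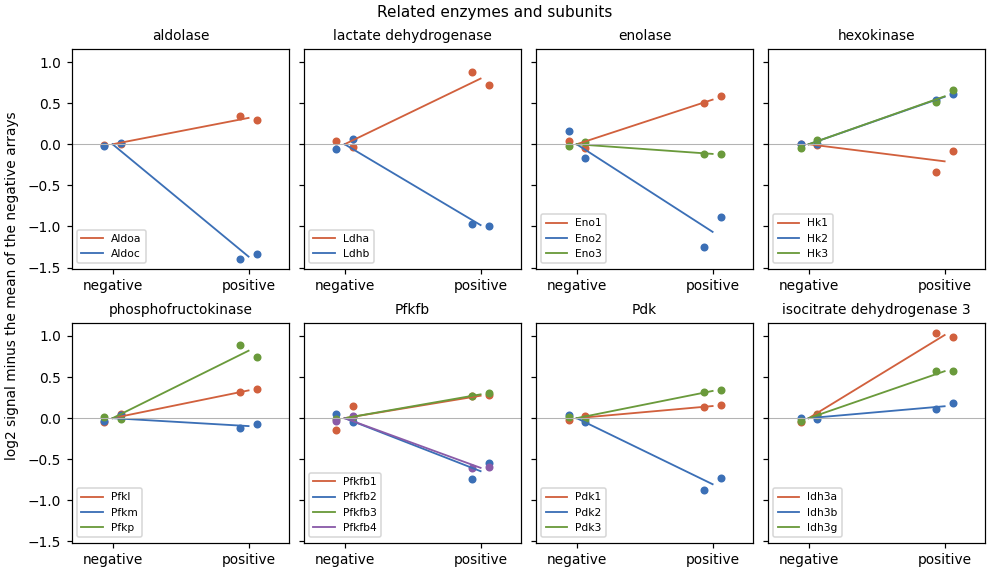
Log2 signal of related enzymes and subunits on each array, shown minus the mean of the gene's negative arrays, in 8 families, with points for arrays and lines joining the group means. Aldoc, Ldhb, Eno2, Pdk2, Pfkfb2 and Pfkfb4 fall while a relative in the same panel rises or stays near 0.

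The start-site sequences of the opposed pair Ldha and Ldhb, and of the glycolytic genes with the largest rise and fall, Pgam1 and Aldoc, are shown because the core letters ACGTG and GCGTG, which the hypoxia factor HIF recognizes, are classically described in glycolytic promoters. They are the 250 bases before an annotated start, 5′ to 3′ along the gene, from RefSeq on GRCm38.p6. Capitals mark the core letters on either strand. The windows are chr7:46845554-46845803 on the plus strand for Ldha, chr6:142507958-142508207 on the minus strand for Ldhb, chr19:41911621-41911870 on the plus strand for Pgam1 and chr11:78322823-78323072 on the plus strand for Aldoc. Where several starts are listed, the window with the most core matches is given.
Ldha: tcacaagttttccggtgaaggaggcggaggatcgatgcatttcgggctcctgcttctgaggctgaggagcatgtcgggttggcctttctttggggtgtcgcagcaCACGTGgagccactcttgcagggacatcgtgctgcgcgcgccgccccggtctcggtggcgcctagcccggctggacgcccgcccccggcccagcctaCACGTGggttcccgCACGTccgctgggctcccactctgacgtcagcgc
Ldhb: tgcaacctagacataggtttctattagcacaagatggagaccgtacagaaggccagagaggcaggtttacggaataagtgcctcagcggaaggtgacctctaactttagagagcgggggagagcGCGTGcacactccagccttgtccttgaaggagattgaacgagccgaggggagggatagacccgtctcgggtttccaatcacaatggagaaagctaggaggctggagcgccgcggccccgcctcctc
Pgam1: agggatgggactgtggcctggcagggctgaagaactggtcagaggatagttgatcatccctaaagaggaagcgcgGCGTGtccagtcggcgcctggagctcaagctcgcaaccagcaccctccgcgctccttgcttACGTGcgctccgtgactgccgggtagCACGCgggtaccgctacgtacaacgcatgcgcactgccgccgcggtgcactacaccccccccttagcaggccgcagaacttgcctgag
Aldoc: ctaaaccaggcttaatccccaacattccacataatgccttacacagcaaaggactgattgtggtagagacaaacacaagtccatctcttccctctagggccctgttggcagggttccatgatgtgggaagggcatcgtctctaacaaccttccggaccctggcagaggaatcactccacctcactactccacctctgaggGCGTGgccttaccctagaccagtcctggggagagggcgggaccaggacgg
The Ldha window holds 5 core matches, in part on both strands of 2 CACGTG palindromes (the E-box, which contains ACGTG). Pgam1 holds 3, and Ldhb and Aldoc 1 each. With the 50 bases after the start included, the counts were 7 for Ldha, 3 for Pgam1, 1 for Ldhb and 3 for Aldoc, so the Pgam1 and Aldoc windows then held equally many. Of the 43 genes 42 had listed windows of 300 bases, 250 before and 50 after the start, 67 in all and some overlapping. The core letters were in 49 of these (73.1%) and in 43.8% of all 32851 windows. The letters hold a CG, and the members' windows held a median of 18 CG against 7 in all windows. The E-box CACGTG was in 11.9% against 7.15%, the Ets and IRF composite motif in 1.49% against 2.72%, and the interferon response motif in 2.99% against 3.44%, all read on both strands. A match describes letters and not binding.

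All 7 pentose phosphate genes rose under the 75th percentile scaling, against 38.5% of all genes and 67.1% of the 5591 brightest. With the brightness trend removed 4 passed upward, against 24.8% of all genes. The 3 genes of the oxidative, NADPH-forming arm had a median of 0.78, and of 0.44 with the trend removed. Pgls, the gene of the lactonase that follows glucose-6-phosphate dehydrogenase, had the largest increase of the whole set, from 3.15 and 3.18 to 4.36 and 4.55, 2.45-fold (1.29, SE 0.09, adjusted p = 0.00197). G6pdx, the entry enzyme of the pathway, went from 3.25 and 3.23 to 3.97 and 4.08, 1.72-fold (0.78, SE 0.07, adjusted p = 0.0025). Pgd, which makes the second NADPH, went from 3.44 and 3.56 to 4.06 and 4.14 (0.60, SE 0.07, adjusted p = 0.00486). The 3 oxidative genes passed upward under all 7 scalings.

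The 4 genes of the non-oxidative arm had a median of 0.47, which went to 0.10 with the brightness trend removed, where Rpe alone of the 4 passed. Rpe, the ribulose-phosphate epimerase gene, stood at 0.48 (SE 0.06, adjusted p = 0.00493) and kept its call under 6 of the 7 scalings. Taldo1, the transaldolase gene, was at 0.46 (SE 0.06, adjusted p = 0.00495), against 0.02 with the brightness trend removed. Rpia, the isomerase that yields ribose-5-phosphate, was at 0.42 (SE 0.07, adjusted p = 0.00912) and passed under 2 of the 7 scalings (0.11 to 0.42), and not without negative replicate 1 (0.0629). Tkt, the transketolase gene, read 6.86 and 6.74 on the negative arrays, then 7.48 and 7.19 (0.53, SE 0.12, adjusted p = 0.0236). Its arrays were more spread than those of most members, and it did not pass without negative replicate 1 (0.0763) or 2 (0.113). It passed under 2 of the 7 scalings, which ranged from 0.084 to 0.53.

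The Pfkfb enzymes make and remove fructose-2,6-bisphosphate, the strongest activator of phosphofructokinase, and they did not move as 1 family. Pfkfb4 went from 1.68 and 1.74 to 1.10 and 1.11, 1.52-fold lower (-0.60, SE 0.06, adjusted p = 0.00294). Pfkfb2, the heart-type gene with a dim probe, went from -2.33 and -2.42 to -3.12 and -2.92, 1.56-fold lower (-0.65, SE 0.09, adjusted p = 0.00731). It was lost without negative replicate 1 (adjusted p = 0.0515) and lay at -0.013 under normexp background correction. Pfkfb3, whose product is almost purely a kinase, went from 2.42 and 2.45 to 2.71 and 2.74 (0.29, SE 0.06, adjusted p = 0.0151). No direction can be given for Pfkfb3, since it turned to -0.019 with spike-in scaling and did not pass without negative replicate 1 (0.0923) or 2 (0.0796). Pfkfb1, the liver-type gene, was at 0.27 (SE 0.12, adjusted p = 0.111), with negative arrays at -0.71 and -0.41, and passed without negative replicate 2 (0.42, adjusted p = 0.046).

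Of the pyruvate dehydrogenase kinases, which shut off entry of pyruvate into the citrate cycle, Pdk2 alone of the 3 tested fell. Of all genes 21.4% fell. Pdk2 went from 0.56 and 0.48 to -0.36 and -0.22, 1.75-fold lower (-0.80, SE 0.08, adjusted p = 0.00308). Pdk3 rose slightly, from 2.28 and 2.27 to 2.60 and 2.61 (0.33, SE 0.05, adjusted p = 0.00983), a call lost without negative replicate 1 (0.0642) or 2 (0.0705) and under 5 of the 7 scalings. Pdk1, a hypoxia target, read 1.54 and 1.58 and then 1.70 and 1.73 (0.15, SE 0.06, adjusted p = 0.0859), and its sign turned under 3 scalings.

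In the citrate cycle 9 of 10 genes rose and none fell, with a median of 0.61. Of all genes 38.5% rose and 21.4% fell, and of the 5591 brightest 67.1% and 7.85%. With the brightness trend removed 6 rose and 1 fell, with a median of 0.25, against 24.8% and 25.7% of all genes. Fh1, the fumarase gene, went from 4.43 and 4.47 to 5.50 and 5.52, 2.09-fold (1.06, SE 0.06, adjusted p = 0.00156). Idh3a, the catalytic subunit gene of NAD-dependent isocitrate dehydrogenase, went from 2.79 and 2.89 to 3.88 and 3.83, 2.02-fold (1.01, SE 0.07, adjusted p = 0.0019). Mdh2, the mitochondrial malate dehydrogenase gene, went from 6.85 and 6.82 to 7.63 and 7.58, 1.71-fold (0.77, SE 0.06, adjusted p = 0.00216). These 3, with Sucla2 (0.64) and Suclg1 (0.63), kept their calls under all 7 scalings.

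Idh3g, a regulatory subunit gene of isocitrate dehydrogenase, was at 0.57 (SE 0.06, adjusted p = 0.00334) and passed under 4 of the 7 scalings (0.072 to 0.57). Idh3b, its other partner subunit gene, read 3.71 and 3.70 on the negative arrays, then 3.82 and 3.89, and did not pass (0.14, SE 0.06, adjusted p = 0.0992). The ratio of Idh3a to Idh3b rose by 0.87, and by 0.87 to 0.89 over the 7 scalings. Idh3b turned negative under 5 scalings and passed downward with the brightness trend removed (-0.21, adjusted p = 0.0397). Of the succinyl-CoA ligase genes, Suclg1 encodes the shared subunit, Sucla2 the ATP-forming and Suclg2 the GTP-forming partner. Suclg2 was at 0.40 (SE 0.07, adjusted p = 0.0129) and did not pass without negative replicate 1 (0.0689). Cs, the citrate synthase gene at the mouth of the cycle, was at 0.60 (SE 0.06, adjusted p = 0.0029) and passed under 4 of the 7 scalings (0.12 to 0.60). Ogdh, of the 2-oxoglutarate dehydrogenase complex, was at 0.51 (SE 0.08, adjusted p = 0.00954). Ogdh did not pass without negative replicate 1 (0.062), and its 3 probes ranged from 0.033 to 0.54.

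**Figure D5:**
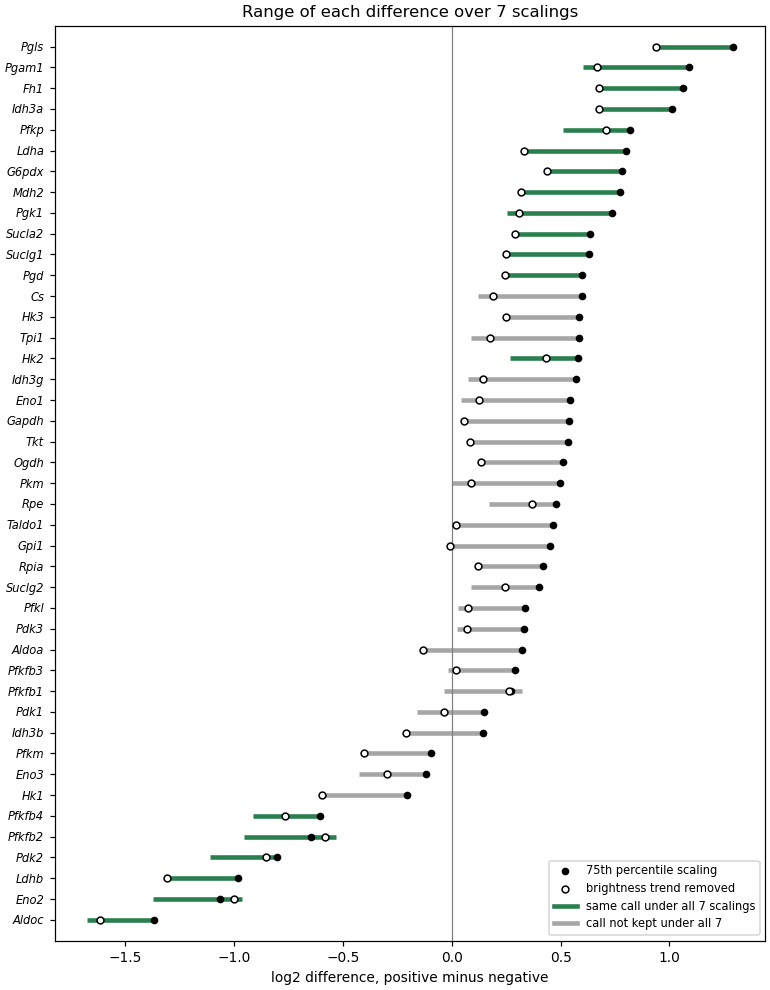
Range of each gene's log2 difference (positive minus negative) over 7 scalings (bars), with the 75th percentile scaling (filled) and the fit with the brightness trend removed (open). Green bars mark the 19 genes, 13 higher and 6 lower, that passed an adjusted p of 0.05 in the same direction under all 7, and the bars of Gpi1, Aldoa, Pfkfb1, Pfkfb3, Pdk1 and Idh3b cross 0.

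Genes that feed or neighbour these pathways were read from 6 further lists of 66 genes, of which 53 were tested, 33 rose, 6 fell and 14 did not pass, with a median of 0.45. Over all genes 38.5% passed upward and 21.4% downward. With the brightness trend removed 23 of the 53 passed upward and 8 downward, against 24.8% and 25.7% of all genes. Their median was then 0.16. Sugar uptake genes did not move together. Slc2a6, a hexose transporter gene, was 3.5-fold higher (1.81, SE 0.06, adjusted p = 0.00115) and Slc2a3, the high-affinity GLUT3 gene, 1.71-fold lower (-0.78, SE 0.06, adjusted p = 0.0023). Slc2a1, the GLUT1 gene, lay at -0.057 (adjusted p = 0.409). The lactate transporter genes Slc16a1 (0.081, adjusted p = 0.669) and Slc16a3 (0.049, adjusted p = 0.53) did not pass.

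Of 10 tested pyruvate entry genes 9 rose and none fell. Of all genes 38.5% rose and 21.4% fell, and of the 5591 brightest 67.1% rose. With the brightness trend removed 4 of the 10 passed upward, against 24.8% of all genes, and the list's median went from 0.47 to 0.17. Pdha1, a pyruvate dehydrogenase subunit gene, was at 0.57 (SE 0.05, adjusted p = 0.0029) and passed under all 7 scalings. Of 13 other cycle and malate or isocitrate enzyme genes 10 rose and 1 fell, against 38.5% and 21.4% of all genes. With the brightness trend removed 7 rose and 1 fell, against 24.8% and 25.7% of all genes. Sdhb, a succinate dehydrogenase subunit gene, was at 0.86 (SE 0.06, adjusted p = 0.00195) and Me2, a mitochondrial malic enzyme gene, at 0.90 (SE 0.06, adjusted p = 0.00203). Me1, the cytosolic malic enzyme gene that makes NADPH, was at least 1.42-fold lower (adjusted p = 0.00853), because its positive signal did not clear background. The bound is the negative mean against the higher of the positive value and the lowest signal well above background. Of 8 shuttle genes 5 rose, against 38.5% of all genes, and 5 with the brightness trend removed, against 24.8%. Slc25a12, the aspartate-glutamate carrier gene, was at 1.02 (SE 0.06, adjusted p = 0.00167) and Got1, cytosolic aspartate aminotransferase, at 0.97 (SE 0.07, adjusted p = 0.00206). Gpd1 of the glycerol phosphate shuttle fell (-0.82, SE 0.09, adjusted p = 0.00382).

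Among the other sugar enzymes 5 of 12 tested rose and 2 fell, against 38.5% and 21.4% of all genes. Ldhd, the gene of the mitochondrial D-lactate dehydrogenase, was 5.5-fold lower (-2.46, SE 0.09, adjusted p = 0.00115). Fbp1, of gluconeogenesis, fell as well (-0.54, SE 0.06, adjusted p = 0.00415). Of 5 tested other pentose phosphate genes 3 rose and 1 fell, against 38.5% and 21.4% of all genes. Prps1 (0.69, SE 0.07, adjusted p = 0.00347) and Prps2 (0.64, SE 0.06, adjusted p = 0.00298), which turn ribose-5-phosphate into the nucleotide precursor, were among the 3. Shpk fell (-0.35, SE 0.07, adjusted p = 0.0197), a call not kept under all 7 scalings.

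Hypoxia genes were mixed. Hif1a itself was at 0.15 (SE 0.06, adjusted p = 0.0984). Of 10 tested hypoxia-factor targets outside these pathways 5 fell and 1 rose, against 21.4% and 38.5% of all genes. Their median was -0.25, and Vegfa was lower (-0.64, SE 0.06, adjusted p = 0.00264). Egln3, a prolyl hydroxylase gene that marks HIF for destruction, was 2.16-fold higher (1.11, SE 0.07, adjusted p = 0.00186), and Meis1, a stem cell homeobox gene described as an activator of Hif1a, was 1.85-fold lower (-0.89, SE 0.07, adjusted p = 0.00217). Myc, a known activator of glycolytic and nucleotide genes, was 1.5-fold higher (0.58, SE 0.05, adjusted p = 0.00286) and Mycn 4.44-fold lower (-2.15, SE 0.08, adjusted p = 0.00115).

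Other groups of genes moved along with the metabolic ones. The counts stand against 38.5% upward and 21.4% downward among all genes, and 67.1% and 7.85% among the 5591 brightest. All 15 S phase genes rose (median 0.73), and 14 with the brightness trend removed (median 0.47). Their summed level, relative to the 75th percentile on a linear scale, went from 522 and 529 to 891 and 867. All 15 G2 and M phase genes rose too (median 1.18), from 162 and 166 to 349 and 356. With the brightness trend removed all 15 passed upward as well (median 0.86). Of 10 monocyte and macrophage markers 8 were on the array under these symbols and 6 were tested, all 6 higher, with a summed level of 9.84 and 9.57 against 86.3 and 90.2, and Cd14 and Fcgr1 not above background. All 7 tested megakaryocyte markers of 8 were lower, from 17.9 and 18.7 to 4.50 and 4.47. In the mature neutrophil list 5 of 9 genes on the array, Ltf and Ngp among them, were not above background on enough arrays to be tested. Of the 4 tested 1 was lower and 3 did not pass (median -0.60). Of 8 B cell markers 4 were tested, 2 were higher (Cd79b and Vpreb1), and Pax5, Ebf1, Ms4a1 and Igll1 were not above background, with a summed level of 11.6 and 11.1 and then 15.1 and 14.7. Of 9 T and NK cell markers 4 were tested and 2 were higher (Nkg7 and Klrb1c), while Cd3d, Cd3g, Cd8a, Ncr1 and Gzma were not above background, with a summed level of 37.1 and 37.7 and then 43.6 and 42.96. Under all 7 scalings 1 of the higher B cell calls was kept, and none of the T and NK cell calls. Of 7 tested erythroid markers 4 were lower and 1, the transferrin receptor gene Tfrc, was higher. Of 5 tested stroma and endothelium markers 2 were lower and 3 did not pass. The summed level of that list was 15.7 and 13.5 and then 20.6 and 16.2. The part of cell cycle or of cell mixture in the metabolic differences was not tested. In such sorted bulk samples fewer cells of a type and less RNA per cell cannot be told apart.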

How the data were processed

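RNA of LMPP, 2 samples without and 2 with IRF8-GFP, was hybridized to 1-colour Agilent arrays. Per the labels' protocols, Agilent's kit for small RNA amounts was used. Per the file headers, Feature Extraction 10.7.3.1 gave each spot a processed intensity after background subtraction and detrending, raw median intensities of spot and background, and other values such as quality flags. The deposited matrix holds linear intensity values with identical sorted values in all 4 columns (median 31.9), as after quantile normalization by the authors. No source used here gives its centring. The 4 arrays share 1 slide and 1 scan day.

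Outlier and control spots were left out, spots were averaged per probe, and log2 signals were centred on each array's 75th percentile (signals of 438, 543, 318 and 414). Probes well above background on both arrays of 1 or both groups were kept (30478), and each gene was read by its brightest kept probe. Accessions were matched without version to RefSeq of GRCm38.p6, which named 26756 probes. limma 3.58.1 in R 4.3.3 (lmFit, eBayes, no block, two-sided) was fitted to all 4 arrays and tested on simulated data. Shared replicate numbers are no evidence of pairing here: the replicate deviations of the groups correlated at 0.0971 across genes.

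The members, lists, families and tests were chosen with earlier results of these data known. All members are named. By rule, values on each array are given for members past 0.05 and 0.5 or more from the median of all genes, for the brightest of each role and for some whose sign differs between scalings, and of each other list up to 3 genes past 0.05 with the largest difference. Slc2a1, Slc16a1, Slc16a3, Hif1a, Pax5 and other genes outside that rule were named after their values were seen. Probes of genes with many processed pseudogenes, such as Gapdh, may also bind their transcripts. The number of arrays limits the precision.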

Additional observations from a re-analysis of the deposited data

How the results depend on the processing

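Of the 31 higher and 6 lower member calls, the higher ones numbered 17 after spike-in scaling, 15 after cyclic loess, 16 after quantile normalization and 16 in the matrix, and 9 when a difference of 0.5 or more from the median of all genes was required. The lower ones numbered 10 with cyclic loess and 4 with normexp background correction. Leaving out 1 array at a time gave 23 to 31 higher and 4 to 7 lower calls, the fewest without negative replicate 1, where an arm of 1 array is assumed to vary like the other. The median of the members (0.50) was 0.44 with normexp, 0.12 with quantile normalization, 0.12 in the matrix values, 0.26 with centring on probes detected on every array, 0.19 with spike-in scaling, 0.13 with cyclic loess and 0.47 to 0.49 with an array left out. Over all genes 13390 calls became 7861 at an adjusted p of 0.01, 6378 at 0.5 or more from the median, and 7612 to 12774 with an array left out.

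Signs turned for few members. With quantile normalization and in the matrix values these were Aldoa (-0.091 and -0.10) and Idh3b (-0.17 and -0.17). With centring on probes detected on every array they were Pdk1 (-0.087) and Idh3b (-0.089), with spike-in scaling Pfkfb1 (-0.035), Pfkfb3 (-0.019), Pdk1 (-0.16) and Idh3b (-0.16), and with cyclic loess Gpi1 (-0.0077), Aldoa (-0.13), Pdk1 (-0.036) and Idh3b (-0.21). The cause of these changes was not tested. With the replicate number as a block all 31 higher and 6 lower calls of the members were the same in number, and 13946 genes passed in all. No filter on dim probes, or a stricter one, left the member counts at 31 and 6.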

Other observations

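Several genes of the set are read by more than 1 probe, and the difference depended on the probe. For Gapdh and Ldha the probe with the highest signal, which represents the gene, gave less than most others: 0.54 within 0.52 to 0.73 for the 7 Gapdh probes, and 0.80 for Ldha, whose other 2 probes gave 0.99 and 1.0. For Pfkp the higher-signal probe gave more (0.82 against 0.49). The 2 Pfkfb3 probes gave 0.29 and 0.46, the 2 Tpi1 probes 0.58 and 0.55, and 1 of the 2 Pfkfb4 probes did not clear background on the 4 arrays.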
